A study of Mus musculus with 10 samples.

Results

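The neurotrophins and their receptors were examined in OP9 cells as 6 genes, *Bdnf*, *Ntf3*, *Ntrk2*, *Ntrk3*, *Ngfr* and *Sort1*, each found by its symbol as 1 row among the 26888 genes of the deposited table. OP9 is a stromal cell line from mouse calvaria that supports blood progenitors, and all libraries carried the same labelled strain, (C57BL/6xC3H)F2-op/op, so that every group shares the op/op background. The 10 RNA-seq libraries comprised 6 reaggregates, which the labels place for 48 h at the liquid-gas interface on nitrocellulose filters with 0.8-µm pores, and 4 flat cultures kept under medium. Of the reaggregates, 3 (numbers 2, 4 and 6) received IL-3, labelled at 200 µg/µl, and 3 (numbers 1, 3 and 5) did not. The label of flat cultures 2 and 4 names the de Bruijn laboratory, whereas flat cultures 1 and 3 and all reaggregates carried no source label. The study's methods name the groups of de Bruijn and Medvinsky as sources of the flat cells and describe trypsin before reaggregation and collagenase/dispase before RNA extraction of reaggregates. OP9 is 1 line, and the labels do not say which libraries came from separate cultures, so that p-values measure the spread between these libraries, which may be technical. The comparison of reaggregates with flat cultures asks how the transcriptome of this stroma differs between both ways of growing it. In this design the way of growing cannot be told apart from the enzyme steps described for reaggregates. Nor can it be told apart from cell source, since no reaggregate carries a source label.

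Neurotrophins are secreted growth factors, made as precursors that furin-type proteases cut, and known above all for keeping neurons alive and shaping their connections. BDNF signals through the receptor tyrosine kinase TrkB (*Ntrk2*) and NT-3 (*Ntf3*) mainly through TrkC (*Ntrk3*), while both, and their precursors, bind the p75 neurotrophin receptor (*Ngfr*), which can pair with sortilin (*Sort1*). In mesenchymal cells, *Ngfr* is used as a surface marker of bone marrow stroma, and *Bdnf* is made by many fibroblast-like cells outside the nervous system.

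Promoter windows from RefSeq (build GRCm38.p6, 250 bases before to 50 after an annotated start) were held for 4 of the 6 members in 11 windows, of which 7 belong to *Bdnf*, a gene with many alternative first exons. The values below sum all transcripts of a gene and do not separate these starts. A pair of windows is shown, for the member that fell and for a receptor that rose, with capitals marking the motif letters found on either strand.

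Bdnf (chr2:109692186-109692485, plus strand): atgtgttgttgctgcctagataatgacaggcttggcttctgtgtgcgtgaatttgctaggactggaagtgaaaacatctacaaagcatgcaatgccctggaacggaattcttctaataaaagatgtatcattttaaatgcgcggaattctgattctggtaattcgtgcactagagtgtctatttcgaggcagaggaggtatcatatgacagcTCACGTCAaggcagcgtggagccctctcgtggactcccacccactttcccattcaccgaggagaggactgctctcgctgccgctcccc

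Ngfr (chr11:95587649-95587948, minus strand): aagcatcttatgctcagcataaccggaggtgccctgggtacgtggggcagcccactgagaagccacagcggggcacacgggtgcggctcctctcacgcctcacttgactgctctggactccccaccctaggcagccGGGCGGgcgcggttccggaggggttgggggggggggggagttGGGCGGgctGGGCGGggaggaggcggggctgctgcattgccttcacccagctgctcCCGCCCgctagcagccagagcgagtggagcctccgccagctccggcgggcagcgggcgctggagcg

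In the *Bdnf* window the capitals mark TCACGTCA, a variant of the cyclic AMP response element, whose first base lies 38 bases before the annotated start. These letters, in either orientation, stood in 0.441% of all 32851 windows and in 1 of the 7 *Bdnf* windows. The motif was chosen after the windows had been seen. In the *Ngfr* window the capitals mark 4 GC boxes (GGGCGG or CCGCCC), which 35.7% of all windows hold at least once. Neither the full element TGACGTCA (1.79% of windows) nor the AP-1 site TGAGTCA (5.2%) was found in any member's window on either strand, and none of the motifs searched overlapped another in the windows shown. Such matches describe the sequence only.

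Values are in RPM, a unit in which the reads of a gene are scaled to 1 common library total without regard to gene length. With the most frequent value of a library between 0.05 and 0.5 RPM taken for 1 read, depth came to about 7350000 to 9430000 reads on genes in reaggregates and 8260000 to 8700000 in flat cultures. At this depth 3 reads, the smallest amount taken as detected, correspond to 0.318 to 0.408 RPM, a limit for counting error alone. The libraries of reaggregates 1 and 2, 3 and 4, and 5 and 6 resembled each other closely (Pearson's r across genes, which are not independent replicates, 0.994 to 0.995, against 0.961 to 0.98 for the 12 other pairs of reaggregates). The numbers of genes and members called, and the changes of members and of pathway genes named by rule, were therefore also computed with consecutive reaggregates averaged. Genes that exceeded 0.5 RPM in at least 1 library, 16933 in all, were compared on log2(RPM + 0.5) with limma, and a gene was called if it changed at least 2-fold and its p, adjusted by Benjamini-Hochberg over all of these genes, did not exceed 0.05. Changes of low genes come out too small on this scale, and in bulk RNA fewer cells of a type and less RNA per cell cannot be told apart.

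The identity of the cells was checked with marker genes. Of 10 stromal markers tested, 5 were called higher in reaggregates, *Col1a1*, *Col1a2*, *Col3a1*, *Pdgfra* and *Pdgfrb*, and none lower, beside 7.32% and 6.53% of all genes tested. *Thy1*, the stromal marker not tested, was at 0.359 RPM at most, and *Col3a1* and *Ly6a* were called lower in flat cultures labelled de Bruijn than in those without a source label. Of the 7 neuronal markers in the table, *Elavl3*, *Elavl4*, *Nefm* and *Stmn2* stayed under 3 reads in every library, whereas *Snap25*, *Syt1* and *Tubb3* passed the filter, and the list summed to 17.6 to 33 RPM in reaggregates and 7.52 to 100 RPM in flat cultures. Of 8 Schwann cell and neural crest markers, *Sox10* and *Foxd3* were listed at 0 and 5 passed the filter, with sums of 4.35 to 33.8 and 11.1 to 31.5 RPM. Among both lists no gene was called between reaggregates and flat cultures, and *Tubb3* was called lower with the de Bruijn label. The endothelial markers *Cdh5*, *Emcn* and *Kdr* stayed under 3 reads, with a list sum of 1.09 RPM at most. Of the blood cell markers *Ptprc* and *Cd3e* were listed at 0, *Hba-a1* and *Itgam* passed the filter, and the list summed to 0.52 to 2.55 RPM and 0.318 to 3.54 RPM, with *Hba-a1* called lower with the de Bruijn label. The 4 smooth muscle markers summed to 67.9 to 451 RPM in reaggregates and 172 to 2730 RPM in flat cultures, with *Myh11* under 3 reads everywhere, and the 4 adipocyte markers in the table to 19.3 to 45.6 RPM and 31.3 to 715 RPM. In each of these lists 1 gene, *Cnn1* and *Fabp4*, was called lower in reaggregates. With the de Bruijn label 2 smooth muscle and 3 adipocyte markers were called higher, with median log2 differences of 3.14 and 2.35. In this comparison of 2 with 2 flat cultures, 1.82% of all genes tested were called higher and 3.87% lower. The part of these markers in the results below was not tested.

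Of the ligands, *Bdnf* fell and *Ntf3* was barely detected, and of the receptors, *Ntrk3*, *Ngfr* and *Sort1* rose after reaggregation, whereas *Ntrk2* was not detectable at this depth. Among the 16933 genes tested, 7.32% were called higher and 6.53% lower in reaggregates. Of the 6 members, 5 passed the filter on low values, *Ntf3* only through reaggregates 2 and 4, and 3 were called higher and 1 lower. With consecutive reaggregates averaged, which leaves 3 values, 0 members were called higher and *Bdnf* was still called lower, while 312 of all genes were called higher and 429 lower. No support is drawn from this count of members, because the filter let *Ntf3* through only by the condition in which it is high. The members called exceeded 0.5 RPM in at least 1 library of each condition. *Ntrk3* and *Ngfr* lay higher in every reaggregate than in every flat culture, as did 7.8% of all genes tested, and *Bdnf* lay lower, as did 11.4%.

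**Figure D1:**
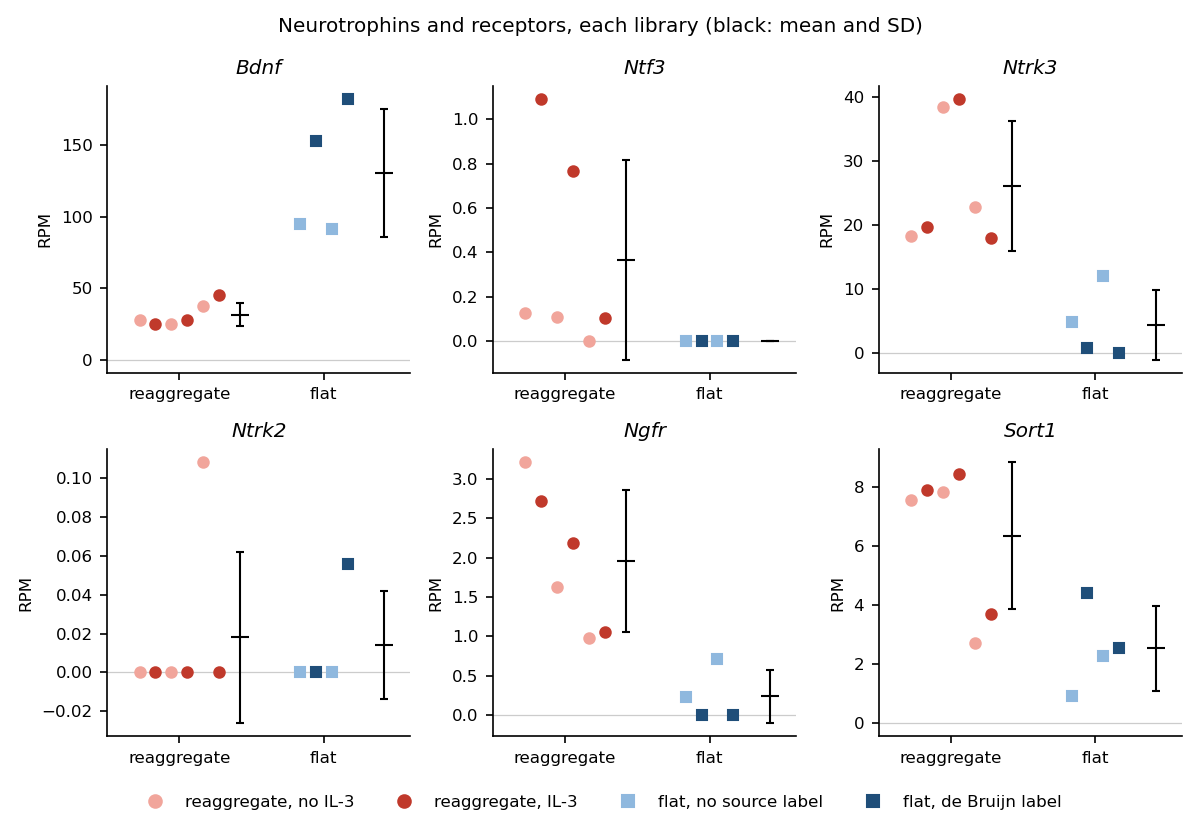
Level (RPM, linear axis, own scale in each panel) of the 6 members in each library, with circles for reaggregates and squares for flat cultures, and the mean and SD of each culture condition in black. *Bdnf* lies lower in all 6 reaggregates than in all 4 flat cultures, *Ntrk3* and *Ngfr* lie higher, and *Sort1* overlaps between conditions.

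*Bdnf* (ENSMUSG00000048482) encodes brain-derived neurotrophic factor (NCBI37/mm9, the build of the files, chromosome 2, plus strand, 109514857 to 109567204). It was at 27.6, 25.1, 25.2, 28.0, 37.7 and 45.4 RPM in reaggregates 1 to 6. In flat cultures 1 to 4 it was at 95.1, 153, 91.4 and 182 RPM. The highest reaggregate, number 6, thus lay below the lowest flat culture, number 3, and reaggregates 5 and 6 were higher than the other reaggregates. Reaggregates averaged 31.5 ± 8.24 RPM (SD, n = 6) and flat cultures 130 ± 44.5 RPM (SD, n = 4), and the log2 fold change was −2.0 with an SE of 0.24 (limma adjusted p = 0.000289). An exact permutation test (two-sided, 210 arrangements) gave p = 0.00476 for *Bdnf*, which is the lowest value available to 6 against 4 libraries. *Bdnf* remained called under all 24 alternative settings, with log2 fold changes from −2.42 to −1.59, and with consecutive reaggregates averaged its adjusted p by limma was 0.0139. About 1627.5 reads stood behind the reaggregate values and 4378.5 behind the flat values, the most of any member.

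*Ntf3* (ENSMUSG00000049107), which encodes neurotrophin-3, lies on the minus strand of chromosome 6 from 126051431 to 126116762. It was at 0.128, 1.09, 0.109, 0.768, 0 and 0.106 RPM in reaggregates 1 to 6, which corresponds to 1, 8, 1, 6, 0 and 1 reads. Flat cultures 1 to 3 were listed at 0 and flat culture 4 at 5.23e-05 RPM, far less than 1 read. Only reaggregates 2 and 4 reached 3 reads, and reaggregate 5 overlapped with the flat cultures. The log2 fold change was 0.65 (SE 0.32, limma adjusted p = 0.141), and *Ntf3* was called under none of the 23 alternatives in which it could be tested (adjusted p from 0.0725 to 0.636). With 17 reads in all and none in flat cultures, this fitted value depends on the pseudocount, and no ratio of levels is given.

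*Ntrk3* (ENSMUSG00000059146), the gene of the NT-3 receptor TrkC, spans the minus strand of chromosome 7 from 85337248 to 85723294. It was at 18.3, 19.7, 38.5, 39.7, 22.9 and 18.0 RPM in reaggregates 1 to 6. In flat cultures 1 to 4 it was at 4.83, 0.835, 12.0 and 0.121 RPM, of which the last is 1 read. Reaggregates 3 and 4 were the highest libraries, and the flat cultures of the de Bruijn laboratory were the lowest. Mean levels were 26.2 ± 10.2 RPM over reaggregates (SD, n = 6) and 4.45 ± 5.45 RPM over flat cultures (SD, n = 4), corresponding to a log2 fold change of 3.21 with an SE of 0.69 (limma adjusted p = 0.00666). The size of this change depended on the flat cultures used, with a log2 fold change of 1.63 against the flat cultures without a source label (limma adjusted p = 0.0314) and of 4.79 against those labelled de Bruijn (limma adjusted p = 1.65e-05). With consecutive reaggregates averaged, *Ntrk3* was no longer called (limma adjusted p = 0.0805), nor with reaggregates without IL-3 alone (0.0752) or with IL-3 alone (0.0868). The gene makes receptors with and without a kinase domain, which a value per gene does not separate.

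*Ntrk2* (ENSMUSG00000055254; chromosome 13, plus strand, 58907957 to 59235331), the gene of the BDNF receptor TrkB, did not reach 3 reads in any library. Its highest values were 0.108 RPM in reaggregate 5 and 0.0557 RPM in flat culture 4, each 1 read or less. It did not pass the filter on low values and was not tested, and no fold is given. *Bdnf* was thus measured at 25.1 RPM or more in every library, while the transcript of its kinase receptor was under the limit of 3 reads.

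*Ngfr* (ENSMUSG00000000120; chromosome 11, minus strand, 95430132 to 95449049), the gene of the p75 neurotrophin receptor, was at 3.21, 2.72, 1.63, 2.18, 0.976 and 1.06 RPM in reaggregates 1 to 6. Flat cultures 1 to 4 were at 0.23, 0, 0.719 and 0 RPM, and only flat culture 3, with 6 reads, reached 3 reads. All reaggregates exceeded all flat cultures, and the lowest reaggregates, 5 and 6, were close to flat culture 3. Mean levels were 1.96 ± 0.903 RPM over reaggregates (SD, n = 6) and 0.237 ± 0.339 RPM over flat cultures (SD, n = 4), corresponding to a log2 fold change of 1.76 with an SE of 0.34 (limma adjusted p = 0.00426). The exact permutation test (two-sided) gave p = 0.00476, the smallest possible. *Ngfr* was no longer called against the flat cultures without a source label (log2 fold change 1.3, limma adjusted p = 0.0555) or with consecutive reaggregates averaged (0.0502), nor with reaggregates without IL-3 alone (0.0561). Its log2 fold change rose to 3.05 with a pseudocount of 0.1 and fell to 1.24 with one of 1, and 8 reads in all lay behind the flat values.

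*Sort1* (ENSMUSG00000068747; chromosome 3, plus strand, 108087009 to 108164429) encodes sortilin, a sorting receptor that binds precursors of neurotrophins together with p75. It was at 7.57, 7.90, 7.83, 8.45, 2.71 and 3.71 RPM in reaggregates 1 to 6. Flat cultures 1 to 4 were at 0.921, 4.41, 2.27 and 2.55 RPM. Reaggregates 1 to 4 lay above all flat cultures, whereas reaggregates 5 and 6 overlapped with them. Mean levels were 6.36 ± 2.48 RPM over reaggregates (SD, n = 6) and 2.54 ± 1.44 RPM over flat cultures (SD, n = 4), corresponding to a log2 fold change of 1.21 with an SE of 0.40 (limma adjusted p = 0.0398). The exact permutation test (two-sided) gave p = 0.0286. This was the least stable call among the members, made in 11 of 24 alternatives and in 3 of the 10 that leave out 1 library, with adjusted p by limma from 0.0183 to 0.195. It held without reaggregate 5, reaggregate 6 or flat culture 2 and was lost without any of the other 7 libraries, with the lowest log2 fold change of these, 0.89, without flat culture 1. *Sort1* was also not called with consecutive reaggregates averaged (limma adjusted p = 0.159), with reaggregates without IL-3 alone (0.195) or with IL-3 alone (0.136), without the filter on low values (0.0965), or with IL-3 and source label as terms (0.0867). Its log2 fold change was 0.72 against flat cultures labelled de Bruijn (limma adjusted p = 0.191) and 1.69 against those without a source label (limma adjusted p = 0.0393). Its exons share 329 bases with a gene on the opposite strand, *Gm12523*, and reads from these bases cannot be told apart because the sources used here do not state counting by strand.

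**Figure D2:**
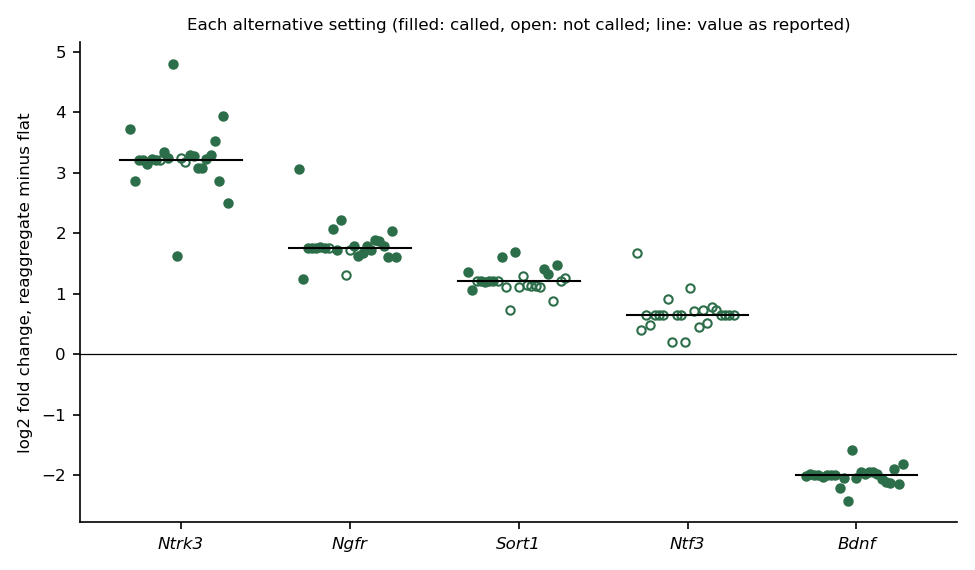
Log2 fold change (reaggregate minus flat, linear axis) of the 5 members tested under each alternative setting, filled where the gene was called and open where it was not, with the reported value as a line. No gene changes sign, *Bdnf* is filled throughout, *Sort1* is filled in 11 of 24 settings, and the extremes of *Ntrk3* are the settings with flat cultures of 1 source label.

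Divided by the length of all annotated exons, the levels of different genes can be set side by side. In reaggregates *Bdnf*, at 5.38 ± 1.41 RPM per kb (SD, n = 6), and *Ntrk3*, at 5.0 ± 1.94 RPM per kb, were the highest members, and their ranges over libraries overlapped. *Sort1* followed at 0.841 ± 0.328 RPM per kb and *Ngfr* at 0.570 ± 0.262 RPM per kb, again with overlapping ranges. *Ntf3* and *Ntrk2* came last, at 0.257 ± 0.315 and 0.00119 ± 0.00292 RPM per kb, and the range of *Ntf3* reached into that of *Ngfr*. In flat cultures the order of the means was the same at the top, but the levels of *Bdnf* and *Ntrk3* were far apart. There *Bdnf* was at 22.3 ± 7.61 RPM per kb (SD, n = 4) and *Ntrk3* at 0.848 ± 1.04 RPM per kb, and the lowest *Bdnf* value, 15.6, exceeded the highest *Ntrk3* value, 2.29. The flat ranges of *Ntrk3*, *Sort1* and *Ngfr* overlapped. In the flat cultures labelled de Bruijn *Ntrk3* lay below *Sort1*, against the order of the means. The lowest flat *Ntrk3* value, 0.0231 RPM per kb, was also below the lowest flat *Sort1* value, 0.122 RPM per kb.

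**Figure D3:**
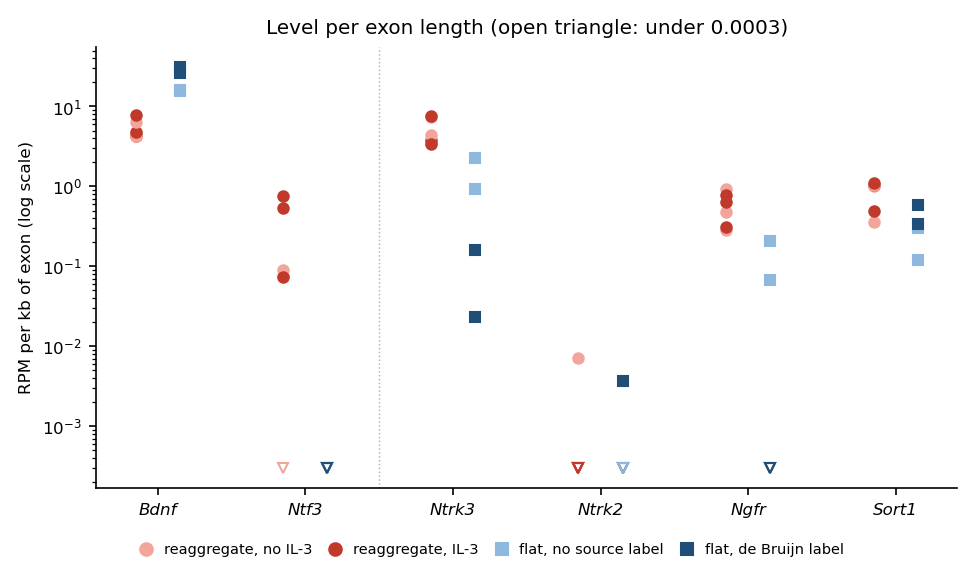
Level per kb of annotated exon (RPM per kb, log axis) of ligands, left of the dotted line, and receptors, right of it, in each library, with reaggregates to the left and flat cultures to the right of each tick and values under 0.0003 as open triangles. *Bdnf* and *Ntrk3* overlap in reaggregates and are separated in flat cultures, and *Ntrk2* stays under 0.01 in all 10 libraries.

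IL-3 was compared within the reaggregates, 3 with against 3 without. No gene was called (0% of 16933, limma), and the unadjusted p was 0.05 or lower for 68 genes. With consecutive reaggregates as a block 0 genes were called and it was that low for 564. Both 68 and 564 are under the share of 0.05 of all genes tested that would arise with no difference in any gene. For *Ntrk3*, *Ngfr*, *Bdnf* and *Sort1* the log2 difference between the library with IL-3 and the consecutive library without it lay between −0.34 and 0.39, and its sign varied between the 3 pairs for all of these genes but *Sort1*. *Ntf3* was higher with IL-3 in all 3 pairs, at 1.09 against 0.128 RPM, 0.768 against 0.109 RPM and 0.106 against 0 RPM, the last being 1 read against 0. *Ntf3* passed the filter only through reaggregates 2 and 4, both with IL-3, so that no support is drawn from its test. Its log2 difference was 0.89 (limma adjusted p = 1, and 0.982 with the block), so that it did not pass the test.

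**Figure D4:**
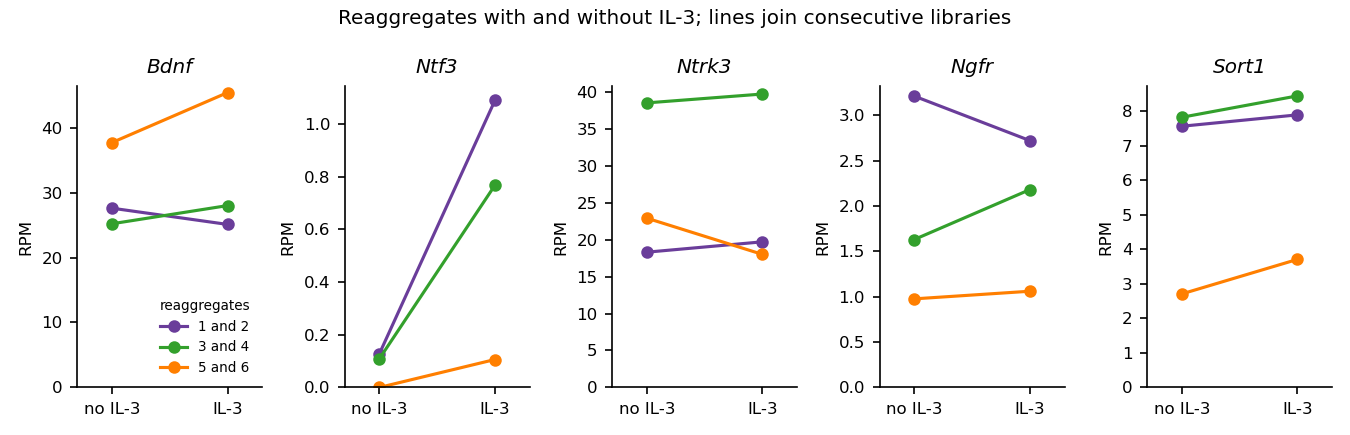
Level (RPM, linear axis) of 5 members in reaggregates without and with IL-3, with lines joining consecutive libraries. Pair 3 and 4 lies above the other pairs for *Ntrk3* and pair 5 and 6 below them for *Sort1* and *Ngfr*, and *Ntf3*, at 8 reads or fewer, rises along all 3 lines.

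Flat cultures were also compared by source label. Of all genes tested, 1.82% were called higher and 3.87% lower in the 2 flat cultures labelled de Bruijn than in the 2 without a source label, 309 and 656 genes. Without the filter on low values these were 56 and 110, with quantile normalization 791 and 972, and without any 1 of the 4 libraries 0 and 0. Among the members *Ntrk3* was called lower, at 0.835 and 0.121 RPM against 4.83 and 12.0 RPM, a log2 difference of −3.16 (SE 0.59, limma adjusted p = 0.0467). This call was made in 4 of 11 alternatives and in none of the 4 that leave out 1 library. *Bdnf* was at 153 and 182 RPM against 95.1 and 91.4 RPM, and its log2 difference of 0.84 did not pass the test (limma adjusted p = 0.137). Neither did those of *Ngfr* (−0.92, limma adjusted p = 0.158) and *Sort1* (0.96, limma adjusted p = 0.304). A split of 2 against 2 libraries is too small for a permutation test to reach 0.05.

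Other genes of the pathway were counted in lists. Of the 59 genes tested in 5 lists, 9 were called higher and 4 lower in reaggregates, 15.3% and 6.78%, beside 7.32% and 6.53% of all genes tested. The higher genes include *Rtn4r*, which passed the filter only through reaggregates, and no support is drawn from this count. With consecutive reaggregates averaged none of the lower genes was called. Of the higher genes named by rule, *Mmp9*, *Rtn4r*, *Nr4a1* and *Egr3* were still called, and *Plcg1*, *Gab1*, *Irs2* and *Fos* were not. This setting was recorded only for genes named by rule, which do not include every higher gene. Among 6 other ligands and receptors, 4 were tested with limma, and 0 were called, while 1 of them, *Nradd*, had an unadjusted p under 0.05. Over all genes tested, 7337 of 16933 had an unadjusted limma p of 0.05 or lower, so that this does not set *Nradd* apart. *Nradd*, which encodes a relative of p75 with a death domain and was chosen after its values were seen, averaged 52.3 ± 5.47 RPM in the 6 reaggregates and 30.4 ± 8.26 RPM in the 4 flat cultures (SD). Its difference of 0.81 in log2 (limma adjusted p = 0.00759) stayed under the 2-fold threshold. The median log2 fold change of these 4 genes was −0.28.

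Among 12 genes of neurotrophin processing, 8 were tested, and 1 was called higher and none lower, with a median log2 fold change of 0.44 beside 0.04 over all genes tested. The gene called was *Mmp9*, a matrix metalloproteinase that can cleave neurotrophin precursors, with means of 25.0 ± 11.4 RPM in the 6 reaggregates and 1.76 ± 2.85 RPM in the 4 flat cultures (SD) and a log2 fold change of 4.15 (limma adjusted p = 0.00129). Flat culture 3 was the highest flat culture, at 5.99 RPM. The log2 fold change of *Mmp9* was 2.93 against flat cultures without a source label and 5.37 against those labelled de Bruijn, and it was called in both.

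Of 23 Trk adaptors and signalling genes tested, 3 were called higher, 1 lower and 19 not called, with a median log2 fold change of 0.35. *Plcg1*, the phospholipase that Trk receptors bind directly, averaged 250 ± 79.1 RPM in the 6 reaggregates and 86.1 ± 53.6 RPM in the 4 flat cultures (SD), with a log2 fold change of 1.63 (limma adjusted p = 0.00547). *Gab1*, a docking protein, rose from 18.2 ± 6.89 to 37.3 ± 3.18 RPM by a log2 fold change of 1.09 (limma adjusted p = 0.00432). *Irs2*, also a docking protein and best known from insulin signalling, rose from 12.3 ± 8.56 to 31.2 ± 12.6 RPM by a log2 fold change of 1.48 (limma adjusted p = 0.026). *Tiam1*, an exchange factor for the GTPase Rac, fell from 4.64 ± 2.68 to 1.92 ± 0.758 RPM, with a log2 fold change of −1.03 (limma adjusted p = 0.0407). With consecutive reaggregates averaged none of these 4 genes was called, and *Tiam1* was called in 8 of 24 alternatives. Leaving out 1 library ended the call of *Gab1* for flat cultures 1 and 4 (log2 fold change 0.91 and 0.97), of *Irs2* for reaggregates 1, 3 and 4 and flat culture 1 (adjusted p by limma up to 0.0712), and of *Tiam1* for all libraries but reaggregate 5 and flat culture 2 (up to 0.0811). Against flat cultures labelled de Bruijn *Irs2* had a log2 fold change of 0.63 (limma adjusted p = 0.196), and against those without a source label *Plcg1* had one of 1.2 (limma adjusted p = 0.076), so that neither was called there. With reaggregates without IL-3 alone or with IL-3 alone none of the 4 genes was called either, and without the filter on low values *Irs2* (limma adjusted p = 0.0741) and *Tiam1* (0.0922) were not.

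Of 12 partners of p75 tested, 1 was called higher and 1 lower, with a median log2 fold change of 0.41. *Rtn4r*, the gene of the Nogo receptor that forms a complex with p75, averaged 0.97 ± 0.381 RPM over the 6 reaggregates (SD) and was under 3 reads in every flat culture, with a log2 fold change of 1.43 (limma adjusted p = 0.00198). It exceeded 0.5 RPM only in reaggregates and passed the filter through them alone, so that no support is drawn from its call. The log2 fold change of *Rtn4r* was 3.03 with a pseudocount of 0.1 and 0.91, under the 2-fold threshold, with one of 1, and with reaggregates without IL-3 alone the limma adjusted p was 0.0554. *Ripk2*, a kinase that binds the death domain of p75 and acts in innate immune signalling, fell from 96.3 ± 69.8 to 22.0 ± 7.43 RPM, with a log2 fold change of −1.83 (limma adjusted p = 0.0151). In the flat cultures without a source label *Ripk2* averaged 36.1 RPM and in those labelled de Bruijn 156 RPM. Against the former alone it was not called (log2 fold change −0.78, limma adjusted p = 0.157), nor was it without flat culture 4 (−1.46, limma adjusted p = 0.0556). Its call also ended with consecutive reaggregates averaged (limma adjusted p = 0.11) and with reaggregates without IL-3 alone (0.0954) or with IL-3 alone (0.124), and without the filter on low values (0.0514).

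Genes that neurotrophins induce, among many other signals, moved in both directions. Of 12 tested, 4 were called higher and 2 lower, with a median log2 fold change of 0.92. The orphan receptor gene *Nr4a1* averaged 539 ± 140 RPM in the 6 reaggregates and 58.1 ± 73.1 RPM in the 4 flat cultures (SD), a difference of 3.98 in log2 (limma adjusted p = 0.0011), or 4.76 without flat culture 3. *Egr3* rose from 2.39 ± 1.88 to 25.4 ± 4.54 RPM, by 3.36 in log2 (limma adjusted p = 0.000138). *Fos* averaged 340 ± 29.5 RPM in reaggregates and 138 ± 201 RPM in flat cultures, 2.53 apart in log2 (limma adjusted p = 0.0232), and flat culture 3, at 436 RPM, exceeded every reaggregate. *Fos* was not called without flat culture 1 or flat culture 4 (limma adjusted p = 0.0666 and 0.0831). *Dusp6* and *Spry4*, feedback inhibitors of ERK signalling, were lower in all reaggregates than in all flat cultures, at 14.9 ± 9.61 against 44.7 ± 5.40 RPM and at 1.83 ± 0.793 against 7.58 ± 4.59 RPM (log2 fold changes −1.78 and −1.68, limma adjusted p = 0.00889 and 0.008). With consecutive reaggregates averaged, *Dusp6*, *Spry4* and *Fos* were not called, and *Nr4a1* and *Egr3* were. Against flat cultures without a source label *Dusp6* (log2 fold change −1.74, limma adjusted p = 0.07), *Spry4* (−1.06, limma adjusted p = 0.0778) and *Fos* (1.88, limma adjusted p = 0.169) were not called. With reaggregates without IL-3 alone *Dusp6* (limma adjusted p = 0.0554), *Spry4* (0.0898) and *Fos* (0.141) were not called, and with IL-3 alone *Spry4* (0.0774) and *Fos* (0.158) were not. *Fos* was also not called with IL-3 and source label as terms (limma adjusted p = 0.0521) or without the filter on low values (0.0751).

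**Figure D5:**
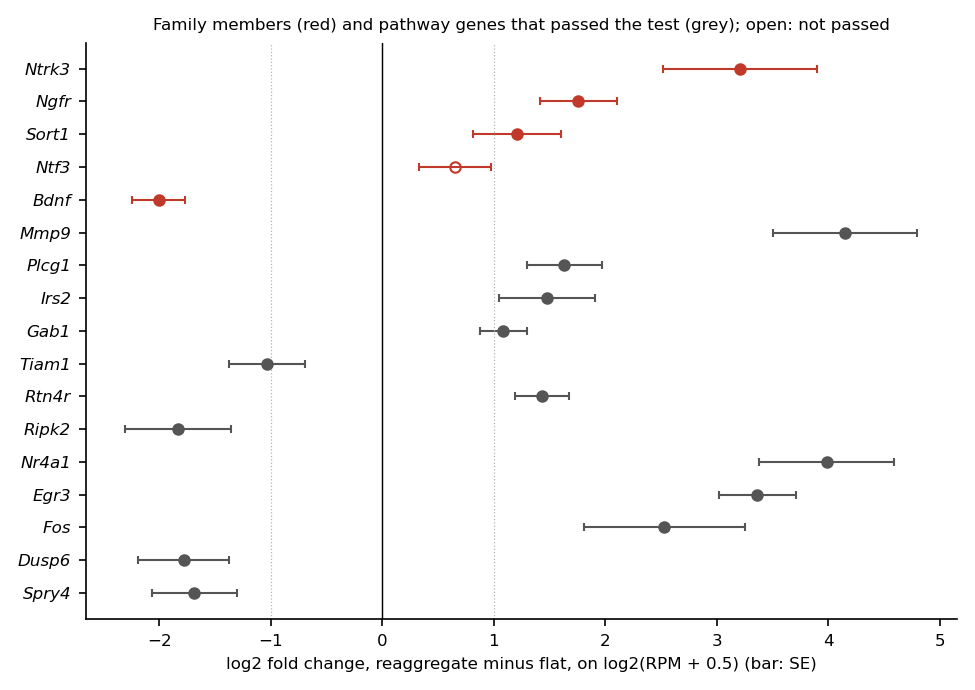
Log2 fold change (reaggregate minus flat, bars show the SE) of the 5 members tested, in red, and of the 12 pathway genes named by rule among those called, in grey, with dotted lines at the 2-fold threshold. *Bdnf* lies to the left and the receptor genes *Ntrk3*, *Ngfr* and *Sort1* to the right, and *Ntf3*, the open symbol, was not called.

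The genes whose levels followed those of each member most closely were sought over the 10 libraries among genes at a mean of at least 1 RPM, as a description in which both culture conditions contribute. For *Ntrk3* they were *Il17rd*, *C1s* and *Serinc5* (Pearson's r on log2 values 0.995, 0.993 and 0.992), and for *Bdnf* *Rnd1*, *Lipt2* and *Rras2* (0.99, 0.99 and 0.989). For *Ngfr* they were *Ralgapa1*, *Suv420h1* and *Itga8* (0.991, 0.988 and 0.986), and for *Sort1* *Smo*, *Rora* and *Map3k2* (0.98, 0.977 and 0.974). The profile of *Ntf3*, which rests on few reads, was less closely followed, with *Slco1a6* first at 0.855, then *F730015K02Rik* and *Inca1* at 0.848 and 0.82.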

How the data were processed

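Transcriptomes of 10 OP9 libraries were analysed from 1 deposited table. The authors aligned reads with TopHat 1.2.0 and Bowtie to NCBI37/mm9, summed uniquely mapped reads over Ensembl genes in GeneProf, divided ambiguous reads among genes and deposited RPM values. The log2 fold change and adjusted p-value of the authors' own DESeq comparison, in the same table, were not used. Every column of library values was matched to a sample by its title.

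Genes above 0.5 RPM in at least 1 library were compared on log2(RPM + 0.5) with limma 3.58.1 in R 4.3.3 (linear model without covariates, empirical Bayes with a mean-variance trend), since divided reads do not suit a count test. This was checked on simulated data. Single members were also tested by exact permutation over libraries, which treats consecutive reaggregates as independent. Exon lengths and coordinates came from GENCODE vM1 on NCBIM37, a later annotation than the authors used, and promoters from RefSeq on GRCm38.p6. These builds were not mixed. Plots were made in Python 3.11.15 with matplotlib 3.10.9.

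The members, lists, tests and alternatives were chosen with earlier results of these data known. Named are all members, the up to 3 called genes furthest from 0 in each direction per pathway list, the 3 genes most like each member tested, and the markers used in checks; 1 further gene, *Nradd*, was chosen after its values were seen. Altogether 25 alternatives were run, none of them added later. Some genes of the pathway are not reported here and were left out of the list counts, but not of the fits.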

Additional observations from a re-analysis of the deposited data

Results flagged for a closer look

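For the 6 members and the 12 named pathway genes, 36 groups of values were examined for a library far from the rest of its culture condition, and 9 such values were found. At 1 group in 20 chance would give about 1.8, a figure that does not hold for the 4 values among nearly all zeros named last. Of the 9, 4 lay in flat culture 3. *Mmp9* measured 5.99 RPM there and no more than 0.921 RPM elsewhere among flat cultures, *Plcg1* at 166 against 64.5 RPM, *Tiam1* at 8.62 against 3.8 RPM and *Fos* at 436 against 79.8 RPM. *Gab1* was at 43.7 RPM in reaggregate 2 against at most 36.7 RPM in the other reaggregates. The remaining values were those of about 1 read or less, for *Ntrk2* 0.108 RPM in reaggregate 5 and 0.0557 RPM in flat culture 4, for *Ntf3* 5.23e-05 RPM in flat culture 4 and for *Rtn4r* 0.119 RPM in flat culture 2. Without flat culture 3 *Mmp9* had a log2 fold change of 4.92, *Fos* of 3.49 and *Plcg1* of 2.0, all still called, whereas *Tiam1* (−0.72, limma adjusted p = 0.0794) was not. Of the members, *Ntrk3* (3.94), *Ngfr* (2.03) and *Bdnf* (−2.15) were still called and *Sort1* was not (limma adjusted p = 0.0507).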

How the results depend on the processing

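No member and no named pathway gene changed direction between reaggregates and flat cultures in any alternative in which it was tested. With consecutive reaggregates averaged, 312 genes were called higher and 429 lower, and 0 members higher, with *Bdnf* still lower. With reaggregates without IL-3 alone the counts were 345, 474 and 0, and with IL-3 alone 277, 360 and 1, with fewer libraries in each fit. Against flat cultures labelled de Bruijn 2579 genes were higher and 1775 lower, and against those without a source label 627 were higher and 1044 lower. Leaving out 1 library gave 766 (without flat culture 4) to 2121 (without flat culture 3) genes higher and 2 to 3 members higher. The titles give both conditions the numbers 1 to 4. Deviations of same-numbered libraries correlated at 0.166, −0.16, −0.124 and 0.185, and 2 of these 4 reaggregates correlated best with their own number. So few values cannot show whether same-numbered libraries share more than a number. With a replicate block over these numbers, which also leaves out reaggregates 5 and 6, 1884 genes were higher and 1154 lower, and the same numbers of members, 3 and 1, were called. Between source labels, *Ntrk3* was not called, leaving 0 members lower, with a pseudocount of 0.1, without a filter on low values or with median-ratio scaling. Without the filter 56 genes were higher and 110 lower, with a stricter filter 995 were lower, and with quantile normalization 791 were higher. Leaving out any of these 4 libraries gave 0 genes and 0 members in either direction, in a fit that assumes the lone library to vary like the other pair. The cause of these changes was not tested. Depth limits *Ntrk2*, *Ntf3* and *Ngfr* in flat cultures, where few or no reads were seen.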
